A study of Mus musculus with 12 samples.

Results

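The collagen genes of the mouse were followed in DKO172 cells after expression of wild-type DICER1, of the DICER1 mutant D1709N or G1809R, or of GFP. A gene was a member when its RefSeq symbol has the form Col, a number, a and a number, and where several probes matched a gene, the probe with the highest mean stood for it. The RefSeq table holds 44 such genes. Of these, 43 had at least 1 matched probe among 63 collagen probes, and Col12a1, which had no matched probe, was not analysed here. A total of 28 of the 43 genes passed the filter on dim probes, which asked for a signal well above background on all 3 arrays of at least 1 group, and were tested among 24184 genes and transcripts. The tested members comprise 9 of 11 fibrillar collagens, 7 of 8 basement membrane collagens, 3 of 6 type VI chains, 5 of 8 fibril-associated collagens with interrupted triple helices (FACIT), 1 of 4 transmembrane collagens and 3 of 6 others.

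DKO172 is a mouse line that, per the labels, came from a fallopian tumor of a female, and the labels do not spell out its genotype or the species of the DICER1 coding sequence. All 4 groups of 3 arrays were handled alike apart from the protein encoded: 2 µg of a plasmid carrying a hygromycin marker was transfected, the cells were re-plated after 24 h, selected with 300 µg/ml of hygromycin over the following 84 h, and harvested for RNA at 108 h. The groups are called GFP, WT, D1709N and G1809R. All rest on 1 line, and the labels do not say whether the replicates are separate cultures, so the p-values refer to the spread among these arrays alone, and this spread may be technical.

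The share of probes above background ran from 49.5% to 82.7% per array, and the number of arrays limits the precision. WT replicate 1 had the highest share, and it correlated with WT replicates 2 and 3 at 0.980 and 0.977, where every other pair within a group had 0.981 to 0.993. It held the highest of the 12 levels for 11 of the 15 collagens that were not tested and for 9 of the 28 that were, against 5034 of all 24184 genes. All replicates numbered 1 were on slide 1 and all others on slide 2, each slide with a scan of its own, so slide and scan cannot be told apart. Of 9 markers of the epithelium of the oviduct and its relatives, Krt8, Krt18 and Ovgp1 were above background on all 12 arrays and Pax8 on 4. Of 9 fibroblast markers, Vim, Thy1, Dcn, Pdgfra and S100a4 were above background on all 12 and Lum on 0. The endothelial markers Cdh5, Emcn and Tie1 and the cartilage markers Matn1 and Hapln1 were above background on 0, while Kdr, Pecam1, Acan and Comp were on 12.

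Collagens are secreted proteins of 3 chains wound into a triple helix. Fibrillar collagens form the tensile fibres of the stroma, type IV collagen forms the sheet-like network of the basement membrane under an epithelium, and other classes link, coat or anchor these structures. Chains are hydroxylated and folded in the endoplasmic reticulum, exported, trimmed of their propeptides and cross-linked outside the cell. DICER1 cuts microRNA precursors, and its RNase IIIb domain, in which both mutated residues lie, makes the cut that frees the arm at the 5′ side. Many collagen messages are known or predicted targets of the miR-29 family, which acts from the 3′ arm of its precursors, and several are predicted targets of let-7, which acts from the 5′ arm.

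The mature sequences of these families are shown because the members are grouped by them further on. They are given as in the RefSeq table of build GRCm38.p6, 5′ to 3′, with the seed (bases 2 to 8) in capitals. The miR-29 members share 1 seed and differ outside it, and let-7a has another seed.
miR-29a-3p: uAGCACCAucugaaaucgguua
miR-29b-3p: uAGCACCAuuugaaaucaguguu
miR-29c-3p: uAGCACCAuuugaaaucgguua
let-7a-5p: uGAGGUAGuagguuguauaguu

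Type IV collagen genes lie in head-to-head pairs, and the results turn on both pairs measured here. The starts of Col4a1 and Col4a2, on chromosome 8, lie 21 bases apart on opposite strands, and their windows from 250 bases before to 50 bases after the start overlap by 78 bases. The starts of Col4a5 and Col4a6, on chromosome X, lie 1343 bases apart, again on opposite strands. The 250 bases before each of these starts (RefSeq, GRCm38.p6) are printed 5′ to 3′ on the strand of the gene, Col4a5 from chrX:141475169-141475418 on the plus strand and Col4a6 from chrX:141474077-141474326 on the minus strand. Capitals mark matches to GGGCGG (GC box) or CCAAT, read on both strands.
Col4a5: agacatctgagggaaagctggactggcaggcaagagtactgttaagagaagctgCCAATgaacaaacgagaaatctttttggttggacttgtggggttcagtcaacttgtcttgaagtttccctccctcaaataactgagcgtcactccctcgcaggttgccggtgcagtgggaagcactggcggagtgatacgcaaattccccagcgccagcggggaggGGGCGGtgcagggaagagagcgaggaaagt
Col4a6: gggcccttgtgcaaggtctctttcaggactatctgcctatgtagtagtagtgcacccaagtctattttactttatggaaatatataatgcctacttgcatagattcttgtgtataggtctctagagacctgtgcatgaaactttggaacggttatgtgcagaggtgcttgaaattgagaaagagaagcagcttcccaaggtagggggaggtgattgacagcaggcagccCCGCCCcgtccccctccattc

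Each of these windows holds 1 GC box, and the Col4a5 window also holds 1 CCAAT. Neither holds TATAAA or the AP-1 site TGACTCA. Of 32851 promoter windows of the same length, 32.7% hold GGGCGG, 33.8% CCAAT, 12.4% TATAAA and 4.5% TGACTCA. Of the 27 windows found for 24 of the 28 tested collagens, 16 (59.3%) hold GGGCGG, 33.3% CCAAT, 7.4% TATAAA and 3.7% TGACTCA. These matches describe the letters only, and overlapping windows such as those of Col4a1 and Col4a2 share bases.

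Few collagens changed with wild-type DICER1, and they did so in both directions. A gene is called here when limma's adjusted p, corrected over all 24184 genes of a comparison, was under 0.05. With WT against GFP, Col4a2 and Col5a3 rose and Col4a5 fell, which is 3 of 28 collagens against 2.95% of all genes (1.19% higher and 1.76% lower). Leaving out any 1 array gave 0 to 2 called collagens, and 1 without WT replicate 1. With quantile scaling 0 were called without the block. Arrays with the same replicate number deviated together, so each result is also given from the same fit with the replicate number as a block. With the block, 8 of 28 collagens were called, against 17.8% of all genes: Col4a1, Col4a2, Col5a3 and Col23a1 rose (9.18% of all genes) and Col4a5, Col4a6, Col7a1 and Col24a1 fell (8.6% of all genes). Without WT replicate 1, 6 were called with the block.

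Fewer collagens differed from GFP with the mutants. With D1709N against GFP, limma called 0 of 28 collagens, against 0.0496% of all genes (0.00827% higher and 0.0413% lower), and 2 had an unadjusted p under 0.05. With the block, Col1a2 and Col7a1 fell, against 4.25% of all genes (1.76% higher and 2.49% lower). With G1809R against GFP, limma called 0, against 0.0124% of all genes (0% higher and 0.0124% lower), and 1 had an unadjusted p under 0.05. With the block, Col1a2 fell, against 3.74% of all genes (1.75% higher and 1.98% lower). Leaving out WT replicate 1, which enters only through the shared spread and the replicate means, gave 3 and 2 collagens with the block.

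Both mutants differed from WT in Col4a1, Col4a2, Col4a5, Col5a3 and Col6a1 once the block was used. With D1709N against WT, limma called 0 collagens without the block, against 1.66% of all genes (0.992% higher and 0.67% lower), and 8 had an unadjusted p under 0.05. With the block 3 were higher and 7 lower, against 15.5% of all genes (7.12% higher and 8.42% lower). With G1809R against WT, limma called 0 without the block, against 1.64% of all genes (1.04% higher and 0.604% lower), and 10 had an unadjusted p under 0.05. With the block 3 were higher and 3 lower, against 12.7% of all genes (6.36% higher and 6.31% lower). Without WT replicate 1 the blocked counts were 6 and 5. The comparisons with GFP share the GFP arrays and those with WT share the WT arrays.

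The median log2 change over the 28 collagens was 0.067 with WT against GFP, beside 0.043 over all genes tested, and turned to -0.12 over the 25 collagens of the deposited value table. It was -0.084 with D1709N and -0.0086 with G1809R against GFP, where all genes had 0.026 and 0.052. Against WT it was -0.23 with D1709N and -0.14 with G1809R, where all genes had -0.0072 and 0.0065. These 4 medians stayed below 0 with normexp, quantile scaling and the value table.

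All WT arrays lay above all GFP arrays for 5 collagens (9.64% of all genes) and below them for 3 (10.2% of all genes). All D1709N arrays lay above GFP for 0 (7.77% of all genes) and below for 2 (5.83%), and all G1809R arrays lay above GFP for 0 (6.14%) and below for 2 (4.98%). Against WT, 3 collagens lay wholly higher (10% of all genes) and 5 wholly lower (7.58%) with D1709N, and 3 wholly higher (8.27%) and 6 wholly lower (6.36%) with G1809R. Of the 28, 9 were not above background on every array, and their lowest levels are near background.

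**Figure D1:**
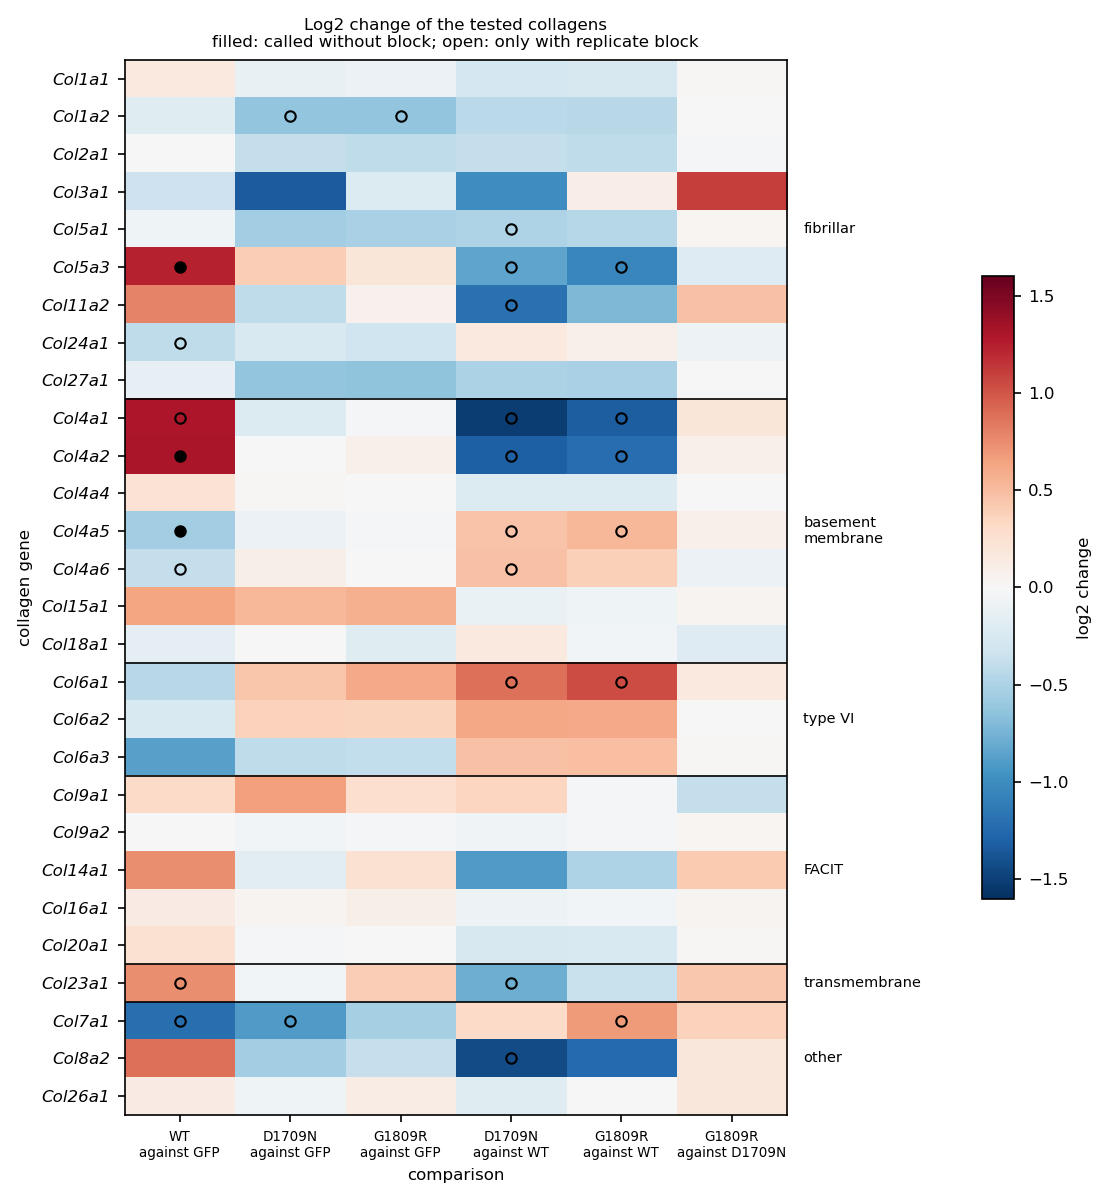
Log2 change (colour, red higher and blue lower in the group named first) of the 28 tested collagens (rows, by class) in the 6 comparisons (columns). Filled circles mark genes called by limma without a block and open circles those called only with the replicate block: Col4a2, Col5a3 and Col4a5 carry the 3 filled ones, all with WT against GFP, and the column of G1809R against D1709N carries none.

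The chains of the widespread form of type IV collagen, Col4a1 and Col4a2, were higher with WT than in every other group. The log2 level (processed intensity less the 75th percentile of the array) of Col4a1 was -0.58, -0.20 and 0.11 with GFP, 0.49, 1.0 and 1.73 with WT, -0.59, -0.75 and 0.012 with D1709N and -0.42, -0.64 and 0.32 with G1809R, in the order of replicates 1, 2 and 3. That of Col4a2 was -0.58, -0.25 and 0.020 with GFP, 0.53, 1.02 and 1.57 with WT, -0.45, -0.51 and 0.16 with D1709N and -0.30, -0.45 and 0.19 with G1809R. For both genes the lowest WT array lay above the highest array of the other 3 groups, while the arrays of GFP, D1709N and G1809R overlapped.

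Col4a2 rose with WT against GFP by 1.31 ± 0.30 (log2 change ± SE, 2.47-fold, limma adjusted p = 0.0496, 0.000864 with the block). Col4a1 differed by 1.29 ± 0.36 (2.45-fold), which was called with the block (limma adjusted p = 0.00175) and not without it (limma adjusted p = 0.0950). Within replicate numbers 1, 2 and 3, WT exceeded GFP by 1.07, 1.20 and 1.62 for Col4a1 and by 1.11, 1.26 and 1.55 for Col4a2, so the direction was the same on both slides. The call of Col4a2 without the block was kept in 1 of 12 fits that left out 1 array, the one without WT replicate 1 (adjusted p = 0.0458), and over the 12 the adjusted p ran from 0.0458 to 0.169. With the block, both genes stayed called in 12 of 12 such fits.

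Both mutants were lower than WT in this pair. D1709N differed from WT by -1.51 ± 0.36 for Col4a1 (limma adjusted p = 0.00134 with the block, 0.0739 without) and by -1.31 ± 0.30 for Col4a2 (0.00113 with, 0.0662 without). G1809R differed from WT by -1.32 ± 0.36 for Col4a1 (0.00222 with, 0.122 without) and by -1.22 ± 0.30 for Col4a2 (0.00150 with, 0.0876 without). All 4 blocked calls were kept in 12 of 12 fits that left out 1 array. Against GFP, the mutants' Col4a1 differences of -0.22 with D1709N (95% interval -1.03 to 0.59) and -0.026 with G1809R (-0.83 to 0.78) were not called, and the intervals allow changes of either sign.

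The other type IV pair, Col4a5 and Col4a6, which contribute to the type IV network of smooth muscle and some epithelial basement membranes, had its lowest levels with WT. The log2 level of Col4a5 was 3.55, 3.22 and 3.40 with GFP, 2.88, 2.78 and 2.85 with WT, 3.28, 3.24 and 3.36 with D1709N and 3.52, 3.31 and 3.30 with G1809R. All 3 WT arrays lay below the 9 others, which overlapped one another. Col4a5 fell with WT against GFP, with a log2 change of -0.55 ± 0.11 (1.47-fold lower, limma adjusted p = 0.0363, 0.00349 with the block). Without the block this call was kept in 3 of 12 fits that left out 1 array, namely those lacking GFP replicate 2, G1809R replicate 1 and G1809R replicate 2, with adjusted p from 0.0423 to 0.130 over the 12; with the block it was kept in 12 of 12.

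Col4a6 had the log2 levels 3.01, 2.66 and 2.99 with GFP, 2.63, 2.39 and 2.5 with WT, 2.87, 2.99 and 3.07 with D1709N and 3.06, 2.75 and 2.84 with G1809R. Its WT arrays lay below the other 9, the nearest being GFP replicate 2. Its change of -0.38 ± 0.14 with WT against GFP was called with the block (limma adjusted p = 0.0399) and not without it (0.197), and the blocked call was kept only without GFP replicate 2, D1709N replicate 1, D1709N replicate 2 or G1809R replicate 1, with adjusted p from 0.0186 to 0.153 over the 12 arrays left out. A second, dimmer probe of Col4a6 differed by only -0.033, with SDs of 0.29 with WT and 0.13 with GFP. Its sign is therefore not resolved, and the probes disagree in size.

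Relative to WT, Col4a5 was 0.46 higher with D1709N (limma adjusted p = 0.00981 with the block, 0.0883 without) and 0.54 higher with G1809R (0.00555 with, 0.0526 without). The first of these was lost with the block without D1709N replicate 2 (0.0513) or D1709N replicate 3 (0.05003), and the second was kept in 12 of 12. Col4a6 was 0.47 higher with D1709N (0.0212 with, 0.136 without) and its difference with G1809R was 0.38 (0.0512 with, 0.269 without). On its dimmer probe these differences were only 0.062 and 0.14. The D1709N call of Col4a6 was lost without WT replicate 2 (0.0642), WT replicate 3 (0.0576), D1709N replicate 2 (0.0923) or D1709N replicate 3 (0.0833). With WT against GFP the pairs had opposite signs on the probes used: positive for Col4a1 and Col4a2, negative for Col4a5 and Col4a6. The second probe of Col4a6 differed by only -0.033 there.

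**Figure D2:**
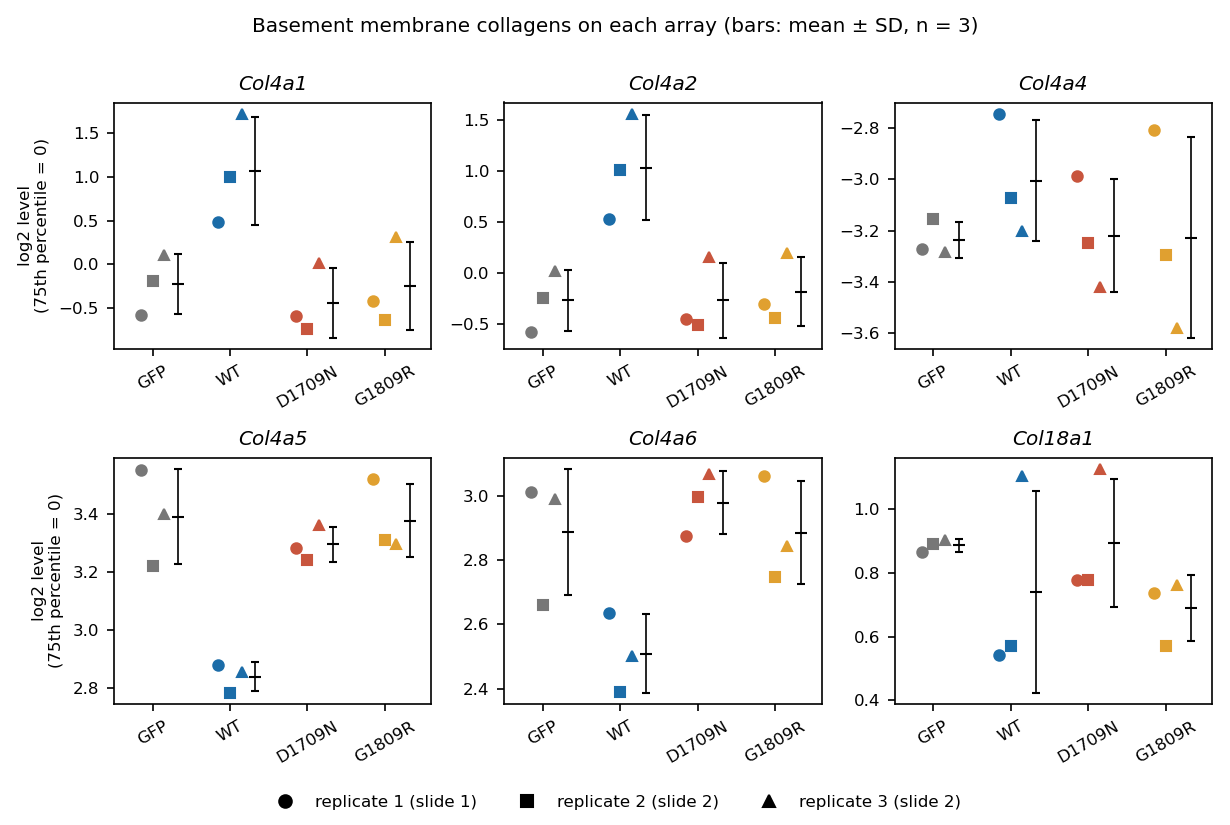
Log2 level (75th percentile of the array = 0) of 6 basement membrane collagens on each of the 12 arrays, by group, with symbols for the replicate number and black bars for the mean ± SD of 3 arrays. The WT arrays of Col4a1 and Col4a2 sit above, and those of Col4a5 and Col4a6 below, all arrays of the other groups, whereas Col4a4 and Col18a1 overlap between WT and GFP.

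The remaining basement membrane collagens passed no test. Col4a4, a chain of the kidney-type network, had log2 differences from -0.22 to 0.23 over the comparisons with GFP or WT, and its partner Col4a3 was above background on 0 arrays. Col18a1, the precursor of endostatin, had log2 levels of 0.86, 0.89 and 0.90 with GFP, 0.54, 0.57 and 1.1 with WT, 0.78, 0.78 and 1.12 with D1709N and 0.74, 0.57 and 0.76 with G1809R. The GFP arrays of Col18a1 lay close together within the range of the WT arrays, and a second probe gave -0.20 with WT against GFP, beside -0.15 for the first. Col15a1, a basement membrane proteoglycan collagen, was above background on 8 of 12 arrays, with log2 levels of -5.18, -6.29 and -7.14 with GFP, -3.58, -7.19 and -5.93 with WT, -5.03, -5.54 and -6.44 with D1709N and -4.95, -6.07 and -5.89 with G1809R, so its groups overlap widely and WT replicate 1 stands highest.

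Among fibrillar collagens, Col5a3, a minor chain of the type V collagen that nucleates fibrils, was the 1 member called without the block. Its log2 level was -3.57, -3.16 and -3.14 with GFP, -1.94, -2.15 and -2.07 with WT, -2.80, -3.37 and -2.5 with D1709N and -2.95, -3.57 and -2.76 with G1809R. The WT arrays lay close together and above all others. Col5a3 rose by 1.24 ± 0.26 with WT against GFP (2.35-fold, limma adjusted p = 0.0366, 0.00518 with the block), and the differences within replicate numbers were 1.63, 1.01 and 1.07. Without the block, 4 of 12 fits with 1 array fewer kept the call, namely those lacking D1709N replicate 2, D1709N replicate 3, G1809R replicate 2 or G1809R replicate 3, with adjusted p from 0.0307 to 0.131; with the block it was kept in 12 of 12. With quantile scaling and no block the call was lost (limma adjusted p = 0.0952).

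Col5a3 was lower than WT by 1.79-fold with D1709N (log2 -0.84 ± 0.26, limma adjusted p = 0.0289 with the block, 0.161 without) and by 2.06-fold with G1809R (log2 -1.04 ± 0.26, 0.0137 with, 0.0914 without). Without WT replicate 1 these blocked adjusted p were 0.0891 and 0.0503, and without WT replicate 2 they were 0.101 and 0.0542. Leaving out D1709N replicate 1 also ended the D1709N call (0.0680), 2 (0.116) or 3 (0.0503), and the G1809R call without G1809R replicate 2 (0.0634). The D1709N change was -0.54 with normexp.

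Col5a1, the main chain of type V collagen, had log2 levels of 2.99, 2.46 and 3.00 with GFP, 2.66, 2.5 and 3.10 with WT, 2.42, 1.74 and 2.64 with D1709N and 2.60, 1.66 and 2.64 with G1809R. WT and GFP overlapped, and replicate 2 was the lowest array of every group. With D1709N against WT, Col5a1 was lower with the block (log2 -0.49, limma adjusted p = 0.0466, 0.596 without), a call kept only without WT replicate 1, G1809R replicate 1 or G1809R replicate 2, with adjusted p from 0.0226 to 0.159. Against GFP the differences of Col5a1 were -0.55 with D1709N (0.0619 with the block) and -0.52 with G1809R (0.0792), neither of which was called. Col5a2 was above background on 2 of 12 arrays and was not tested.

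The chains of type I collagen, the bulk collagen of connective tissue, were not called with WT. Col1a1 had log2 levels of -0.51, -1.20 and -0.66 with GFP, -0.43, -1.08 and -0.37 with WT, -0.72, -1.25 and -0.75 with D1709N and -0.49, -1.48 and -0.69 with G1809R. Replicate 2 was the lowest array in each group, and all groups overlapped. Its largest difference in a comparison with GFP or WT was -0.28 with D1709N against WT (95% interval -0.97 to 0.41).

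Col1a2, its partner chain, had log2 levels of -0.84, -0.93 and -1.39 with GFP, -1.23, -1.42 and -1.09 with WT, -1.42, -1.75 and -1.87 with D1709N and -1.49, -1.75 and -1.84 with G1809R. All 6 arrays of the mutants lay below all 3 GFP arrays, by a narrow gap between GFP replicate 3 and the replicate 1 arrays of the mutants, and the WT arrays overlapped GFP. With the block, Col1a2 fell with D1709N (log2 -0.63 ± 0.18, 1.54-fold lower, limma adjusted p = 0.0478, 0.424 without the block) and with G1809R (log2 -0.64 ± 0.18, 1.55-fold lower, 0.0480, 0.495 without). These calls lie near the threshold: over the fits that left out 1 array, they were kept only without WT replicate 1 or WT replicate 3, with adjusted p from 0.0157 to 0.172 and from 0.0177 to 0.168. Relative to WT the differences were -0.43 and -0.44 and were not called.

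Col3a1, the fibrillar collagen of pliable tissues, was above background on 10 of 12 arrays, including 1 of 3 with D1709N. Its log2 levels were -3.80, -4.89 and -4.58 with GFP, -4.42, -5.40 and -4.44 with WT, -4.70, -5.88 and -6.68 with D1709N and -3.35, -5.03 and -5.56 with G1809R. The arrays of a group lay far apart and the groups overlapped, and its difference of -1.33 with D1709N against GFP (95% interval -2.76 to 0.094) was not called.

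Of the minor fibrillar collagens, Col24a1, known from developing bone, had log2 levels of -0.95, -0.66 and 0.022 with GFP, -1.23, -1.09 and -0.47 with WT, -1.14, -1.07 and -0.10 with D1709N and -1.16, -1.07 and -0.32 with G1809R. Replicate 3 was the highest array of every group and the groups overlapped, while WT less GFP within replicate numbers was -0.28, -0.43 and -0.49. It fell with WT in the blocked fit (log2 -0.40, limma adjusted p = 0.0154, 0.770 without the block), and the call ended without GFP replicate 2 (0.0612), without GFP replicate 3 (0.0629) and without WT replicate 3 (0.0535).

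Col11a2, a chain of cartilage type XI collagen, was above background on 11 of 12 arrays, at log2 levels of -4.36, -4.36 and -4.69 with GFP, -3.04, -3.79 and -4.20 with WT, -4.98, -4.53 and -5.11 with D1709N and -4.49, -4.40 and -4.31 with G1809R. WT replicate 1 was the highest array. D1709N was lower than WT (log2 -1.20, limma adjusted p = 0.0132 with the block, 0.0624 without), a call lost without D1709N replicate 1 (0.0533), and the change was -0.52 with normexp. Without the block it was called in the fit that left out WT replicate 3 (0.0343). The cartilage collagen Col2a1 and Col27a1 had differences between -0.65 and -0.00059, all negative and none called. The fibrillar list of 9 had a median change of -0.40 with D1709N and -0.32 with G1809R against GFP, and of -0.063 with WT, beside the medians over all genes given above. With normexp these were -0.15, -0.20 and 0.023, beside 0.064, 0.054 and 0.058 over all genes. With the 75th percentile scaling, 1, 2 and 3 of the 9 had a positive change, beside 13217, 14432 and 13718 of all 24184 genes.

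**Figure D3:**
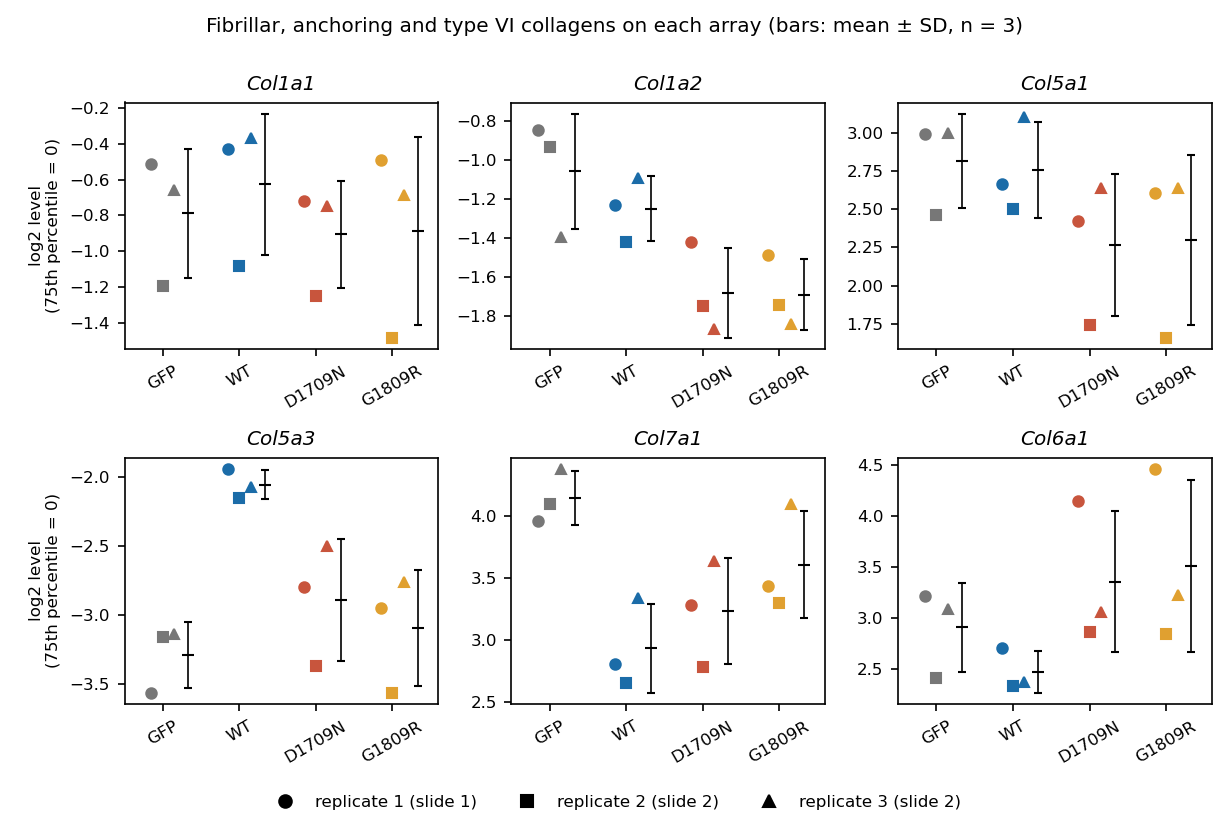
Log2 level (75th percentile of the array = 0) of Col1a1, Col1a2, Col5a1, Col5a3, Col7a1 and Col6a1 on each of the 12 arrays, by group, with symbols for the replicate number and black bars for the mean ± SD of 3 arrays. WT stands apart for Col5a3, all mutant arrays of Col1a2 lie below GFP, and the replicate 1 arrays of both mutants are the highest for Col6a1.

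Type VI collagen, whose beaded filaments lie next to basement membranes, differed between the mutants and WT in 1 of its 3 tested chains. Col6a1 had log2 levels of 3.22, 2.41 and 3.09 with GFP, 2.70, 2.33 and 2.38 with WT, 4.14, 2.87 and 3.06 with D1709N and 4.46, 2.85 and 3.23 with G1809R. Every array of the mutants lay above every WT array, and the replicate 1 arrays of the mutants, on slide 1, lay highest. D1709N exceeded WT by 1.44, 0.54 and 0.68 and G1809R exceeded WT by 1.76, 0.51 and 0.85 within replicate numbers 1, 2 and 3. Both differences were called with the block (limma adjusted p = 0.0385 and 0.0240) and not without it (0.439 and 0.375). Without WT replicate 1 the blocked adjusted p were 0.122 and 0.0791, without WT replicate 3 they were 0.0797 and 0.0595, and over all 12 arrays left out they ran from 0.0275 to 0.129 (kept in 5 of 12) and from 0.0240 to 0.0863 (kept in 8 of 12). The G1809R call was also lost without G1809R replicate 1 or 3, and the D1709N call without any D1709N array, GFP replicate 2 or G1809R replicate 3.

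Col6a2 had log2 levels of -1.30, -1.91 and -1.18 with GFP, -1.57, -1.76 and -1.81 with WT, -0.51, -1.57 and -1.21 with D1709N and -0.34, -1.89 and -1.09 with G1809R. Here too replicate 1 of each mutant was highest, but the groups overlapped and its differences from WT of 0.61 and 0.60 were not called. Col6a3 was above background on 11 of 12 arrays, at -4.36, -4.32 and -2.5 with GFP, -4.99, -4.16 and -4.65 with WT, -4.04, -3.60 and -4.77 with D1709N and -4.00, -3.68 and -4.68 with G1809R. Its GFP replicate 3 stood well above the rest, and nothing was called.

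Col7a1, the collagen of the anchoring fibrils that tie an epithelial basement membrane to the stroma, was highest with GFP. Its log2 levels were 3.95, 4.09 and 4.38 with GFP, 2.81, 2.65 and 3.33 with WT, 3.28, 2.79 and 3.63 with D1709N and 3.43, 3.29 and 4.09 with G1809R. The WT and D1709N arrays lay wholly below the GFP arrays, and the G1809R arrays overlapped GFP at 1 array. Col7a1 differed by -1.21 ± 0.28 with WT (2.31-fold lower, limma adjusted p = 0.000874 with the block, 0.0525 without) and by -0.91 ± 0.28 with D1709N (1.88-fold lower, 0.0105 with, 0.446 without). Its difference with G1809R of -0.53 ± 0.28 was not called (0.0562 with the block).

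Within replicate numbers the level of Col7a1 less that of GFP was negative in all 9 pairs, at -1.15, -1.44 and -1.04 with WT, -0.67, -1.31 and -0.74 with D1709N and -0.52, -0.80 and -0.28 with G1809R. G1809R was higher than WT by 0.68 (limma adjusted p = 0.0110 with the block, 0.358 without), and D1709N differed from WT by 0.30 (0.142 with the block), which was not called. The blocked calls of WT against GFP and of G1809R against WT were kept in 12 of 12 fits that left out 1 array. That of D1709N against GFP was lost without D1709N replicate 2 (0.0551) or 3 (0.0507).

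Col8a2 and Col23a1 were dim, with WT replicate 1 as their highest array. Col8a2, a short-chain network collagen, was above background on 10 of 12 arrays, at -4.99, -4.78 and -5.73 with GFP, -3.53, -4.69 and -4.65 with WT, -5.11, -5.09 and -6.97 with D1709N and -5.33, -5.62 and -5.65 with G1809R. D1709N was lower than WT (log2 -1.43, limma adjusted p = 0.0318 with the block, 0.234 without), a call lost without WT replicate 1 (0.104), WT replicate 3 (0.0895), D1709N replicate 1 (0.0682) or D1709N replicate 3 (0.0871). With normexp the change was -0.51.

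Col23a1, a transmembrane collagen, was above background on 8 of 12 arrays, at -4.23, -5.60 and -6.00 with GFP, -3.23, -5.28 and -5.08 with WT, -4.19, -6.09 and -5.66 with D1709N and -3.69, -5.74 and -5.22 with G1809R. Replicate 1 was the highest array in every group. With the block it rose with WT against GFP (log2 0.75, limma adjusted p = 0.0175, 0.813 without) and was lower with D1709N than with WT (log2 -0.78, 0.0180, 0.786 without). With normexp these changes were 0.27 and -0.18. Without WT replicate 1 these adjusted p were 0.0648 and 0.0637; the first was also lost without GFP replicate 1 (0.0777) or GFP replicate 3 (0.0768), and the second without D1709N replicate 1 (0.0617) or D1709N replicate 2 (0.0797).

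None of the 5 tested FACIT collagens, which coat fibrils, was called by limma in any of the 6 comparisons with or without the block, and none had an unadjusted p under 0.05 in either fit. On the probes used, Col16a1 and Col9a2 had differences from GFP between -0.048 and 0.14, and Col20a1 had differences from GFP or WT between -0.26 and 0.24. A dimmer probe of Col16a1 differed by 0.49 with WT and -0.24 with D1709N against GFP, and by -0.72 with D1709N against WT. Its remaining probe had differences from GFP between -0.11 and 0.050, so the probes of Col16a1 disagree. A second probe of Col20a1 gave 0.25 with WT against GFP and -0.32 with D1709N against WT. Col14a1 and Col9a1 were above background on 9 and 10 arrays, and WT replicate 1 exceeded GFP replicate 1 by 2.19 for Col14a1 and 1.12 for Col9a1, against -0.14 and 0.17, and -0.30 and 0.11, on slide 2. Col26a1 differed by 0.13 with WT against GFP and was not called.

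The 15 untested members did not pass the filter on dim probes. Col4a3, Col6a5, Col8a1, Col10a1, Col17a1 and Col19a1 were above background on 0 arrays, Col11a1, Col28a1 and Col6a6 on 1, Col13a1 and Col5a2 on 2, Col6a4 and Col9a3 on 4, Col25a1 on 5 and Col22a1 on 7. They include the hypertrophic cartilage collagen Col10a1 and the hemidesmosome collagen Col17a1.

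**Figure D4:**
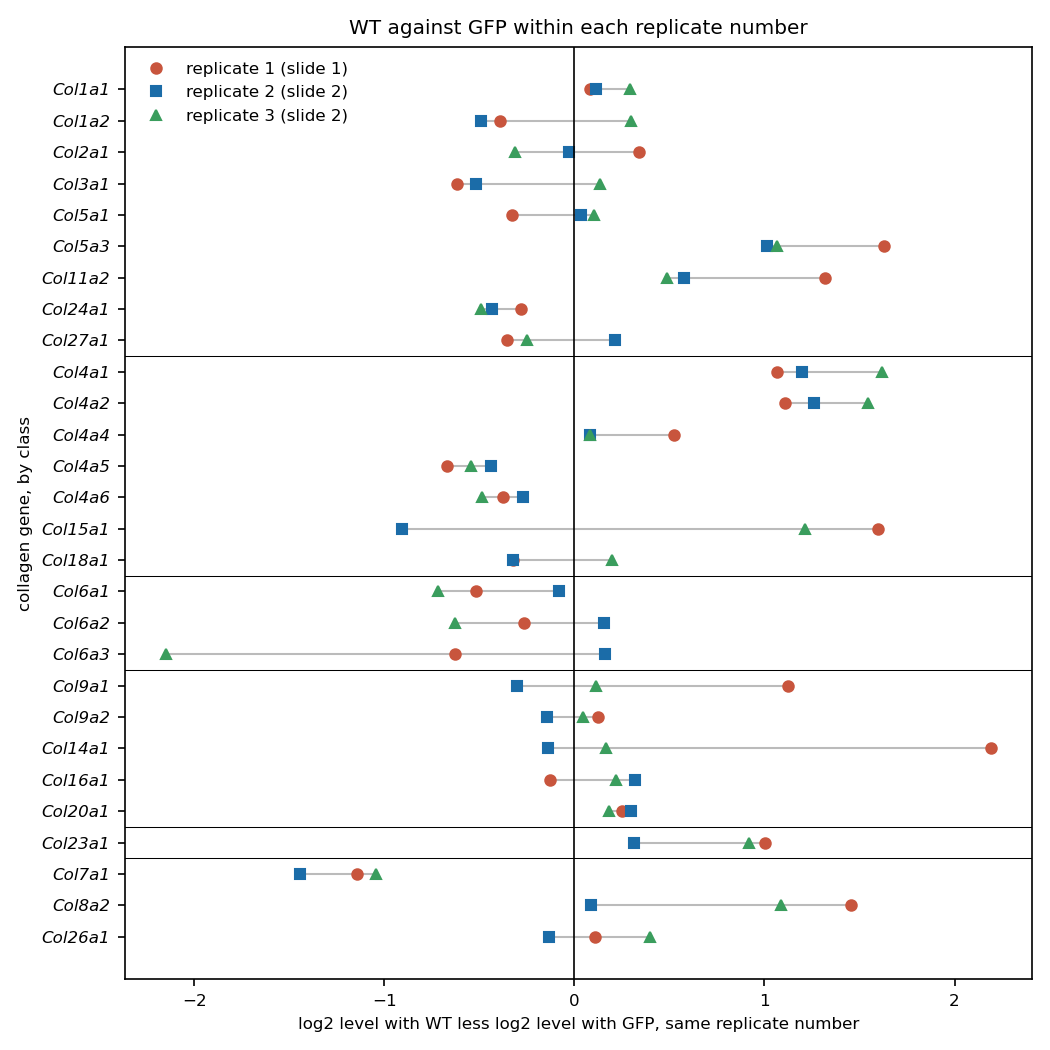
Difference in log2 level between the WT and the GFP array of the same replicate number (horizontal axis) for the 28 tested collagens (vertical axis, by class), with grey lines joining the 3 values. Col4a1, Col4a2 and Col5a3 lie to the right and Col7a1 to the left of 0 at all 3 numbers, by more than 1 on the log2 scale, and for Col14a1 replicate 1 stands far from the others.

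G1809R and D1709N were not told apart in any collagen. With G1809R against D1709N, 0 of 28 were called by limma with or without the block, beside 0% of all genes, and 0 had an unadjusted p under 0.05 without the block and 3 with it. Col4a1 differed by 0.19 (95% interval -0.61 to 1.0), Col7a1 by 0.37 (-0.26 to 1.0) and Col3a1 by 1.11 (-0.32 to 2.53). These intervals allow differences of either sign, and that of Col3a1 reaches 2.53, so likeness of the mutants is not shown. All G1809R arrays lay above all D1709N arrays for 1 collagen (1.5% of all genes) and below them for 1 (0.959% of all genes). The median over the 28 was 0.031, against 0.011 over all genes, and turned to -0.0060 with normexp.

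The known or predicted miR-29 targets among the collagens changed in both directions with WT. Of 20 listed, 15 were tested. With WT against GFP, Col4a2 and Col5a3 rose (1.19% of all genes) and Col4a5 fell (1.76%). With the block 3 were higher and 3 lower, against 9.18% and 8.6% of all genes. Their median change was -0.063, beside 0.043 over all genes, and 0.023 with normexp, beside 0.058 over all genes. Against WT, the medians were -0.38 with D1709N and -0.26 with G1809R, and with the block 4 and 3 were lower (8.42% and 6.31% of all genes) and 2 and 2 higher (7.12% and 6.36%). Those medians were -0.17 with normexp for D1709N and -0.15 with quantile scaling for G1809R. Of 10 collagens listed as predicted let-7 targets, a list that shares 8 genes with the miR-29 list, 9 were tested. With WT against GFP 1 was higher and 1 lower (1.19% and 1.76% of all genes), and 2 and 2 with the block (9.18% and 8.6%). Their median was -0.13, which turned to 0.023 with normexp.

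Of 22 listed miR-29 targets that are not collagens, 21 were tested. With WT against GFP limma called 0 higher and 3 lower without the block, against 1.19% and 1.76% of all genes, and 2 higher and 7 lower with it, against 9.18% and 8.6%. Among those that fell without the block were Tet2, an eraser of DNA methylation, at -1.20 ± 0.16 (limma adjusted p = 0.00740), and the DNA methyltransferase Dnmt3b at -0.90 ± 0.14 (0.0136). The call of Tet2 was kept in 12 of 12 fits that left out 1 array and that of Dnmt3b in 10 of 12 (lost without GFP replicate 1, 0.0609, or WT replicate 2, 0.0547); both were kept in 12 of 12 with the block. Tet2 also fell with D1709N against GFP, at -1.44 ± 0.16 (0.0241), a call kept in 4 of 12 such fits without the block, those without WT replicate 1, WT replicate 3, G1809R replicate 1 or G1809R replicate 2, and in 12 of 12 with it. Dnmt3b was higher than WT with D1709N (0.77 ± 0.14, 0.0329) and G1809R (0.94 ± 0.14, 0.0165), calls kept in 2 of 12 and 9 of 12 such fits without the block, with adjusted p from 0.0392 to 0.140 and from 0.0258 to 0.0735; the first was kept only without G1809R replicate 2 or 3 and the second was lost without WT replicate 2, G1809R replicate 1 or G1809R replicate 2. The median over the 21 was -0.10 with WT against GFP.

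Cross-linking, a step that follows secretion, held calls both with and without the block. Of the 5 lysyl oxidases, which cross-link collagen, Loxl3 rose with WT against GFP by 1.0 ± 0.19 (limma adjusted p = 0.0269) and was lower with D1709N (-1.1 ± 0.19, 0.0248) and G1809R (-1.0 ± 0.19, 0.0337) than with WT. So 1 of 5 was higher and 0 lower with WT against GFP (1.19% and 1.76% of all genes). Against WT, 0 were higher and 1 lower with each mutant. The shares of all genes were 0.992% and 0.67% with D1709N and 1.04% and 0.604% with G1809R. Loxl3 was dim, above background on 11 of 12 arrays and on 2 of 3 with D1709N. With the block, Loxl2 and Lox were higher too with WT against GFP (0.74, 0.0117, and 0.84, 0.00529, with Lox at 0.54 under quantile scaling), and Loxl2 was lower with both mutants than with WT. The blocked counts were 3 higher and 0 lower with WT against GFP (9.18% and 8.6% of all genes). Against WT they were 0 higher and 2 lower with each mutant (7.12% and 8.42%, and 6.36% and 6.31%). Loxl4 went the other way with WT, at -2.02, -2.20 and -2.20 with GFP and -2.05, -2.36 and -3.08 with WT. The Loxl3 calls without the block were kept in 8 of 12, 7 of 12 and 3 of 12 fits that left out 1 array, with adjusted p from 0.0178 to 0.109, from 0.0181 to 0.103 and from 0.0255 to 0.130. All 3 calls were lost without WT replicate 1 and without WT replicate 2, the first also without GFP replicate 1 or 3, the second also without any D1709N array, and the last was kept only when GFP replicate 2, GFP replicate 3 or else WT replicate 3 was left out. With the block all were kept in 12 of 12. With quantile scaling and no block the 3 changes were 0.68, -0.82 and -0.72 and none was called (limma adjusted p = 0.514, 0.462 and 0.574). The median change of the list was 0.74 with WT against GFP, -0.54 with D1709N and -0.47 with G1809R against WT. These medians were 0.62, -0.30 and -0.24 with normexp and 0.54, -0.28 and -0.21 with quantile scaling.

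The enzymes that hydroxylate and fold the chains were called by limma in 0 of 18 cases with WT against GFP, with or without the block, and 0 without and 4 with the block had an unadjusted p under 0.05. With D1709N against WT, 3 were higher and 1 lower with the block, against 7.12% and 8.42% of all genes, and 0 and 0 without it. P4ha1 and P4ha2, the prolyl 4-hydroxylase subunits, were higher with the block (0.58, 0.0156, and 0.56, 0.0312), as was Crtap, a part of the prolyl 3-hydroxylase complex (0.39, limma adjusted p = 0.0363), and Fkbp10, a collagen chaperone, was lower (-0.31, 0.0331). Of 11 genes of collagen export, Creb3l1, a transcription factor of secretory cells, rose with WT in the blocked fit (0.72, limma adjusted p = 0.00190, 0.129 without), as did the coat protein gene Sec31a (0.29, 0.0217). With WT against GFP and the block, 2 of the 11 were higher and 0 lower, against 9.18% and 8.6% of all genes. Of 7 tested genes of propeptide removal, Adamts14, a procollagen N-proteinase, differed by -0.91 with D1709N and -0.91 with G1809R against WT (limma adjusted p = 0.00144 and 0.00151 with the block, 0.0503 and 0.0525 without). With the block 0 were higher and 2 lower with D1709N (7.12% and 8.42% of all genes), and 0 and 3 with G1809R (6.36% and 6.31%). All 7 had changes below 0 in both of these comparisons, where 11845 and 12326 of all 24184 genes had changes above 0.

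Of 11 tested fibril partners, 0 rose and 3 fell with WT against GFP in the blocked fit, against 9.18% and 8.6% of all genes, and 0 were called without it, where 3 had an unadjusted p under 0.05. Tenascin-C (Tnc), a matrix glycoprotein, differed by -1.75 (limma adjusted p = 0.000469 with the block, 0.0813 without, and -0.77 with normexp) and Sparc, a collagen-binding matrix protein, by -0.48 (0.0166 with, 0.140 without). The partners of type IV collagen in the basement membrane, 11 genes, had 1 higher and 5 lower with WT against GFP with the block, against 9.18% and 8.6% of all genes, and 0 without it, where 4 had an unadjusted p under 0.05. Pxdn, the peroxidase that links type IV chains, differed by -0.49 (limma adjusted p = 0.0205 with the block, 0.106 without), and the laminin chain gene Lama4 by 0.60 (0.0160 with, 0.204 without). Of 8 tested collagen receptors, Ddr2 was higher with WT against GFP in the blocked fit alone (0.46, 0.0108). That fit had 1 of the 8 higher and 0 lower, against 9.18% and 8.6% of all genes.

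Of 7 tested genes of collagen breakdown and its inhibitors, Reck, a membrane inhibitor of matrix metalloproteinases, fell with WT against GFP at -1.47 ± 0.20 (limma adjusted p = 0.00660), a call kept in 12 of 12 fits that left out 1 array. Of the 7, 0 were higher and 1 lower there (1.19% and 1.76% of all genes), and 1 and 2 with the block (9.18% and 8.6%). The gelatinase Mmp9 was above background on 6 of 12 arrays and on 0 of 3 with D1709N, and no change of it is given.

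Among 14 genes that control collagen transcription, limma called 0 higher and 2 lower with WT against GFP (1.19% and 1.76% of all genes). With the block 1 was higher and 4 were lower (9.18% and 8.6%). Ets1 fell with WT against GFP at -0.91 ± 0.15 (limma adjusted p = 0.0136) and the TGF-beta receptor gene Tgfbr2 at -0.69 ± 0.15 (0.0438), while the ligand gene Tgfb2 differed by 0.96 (0.00121 with the block, 0.122 without). Against WT, Tgfb2 was lower with D1709N (-1.92 ± 0.29, 0.0181) and G1809R (-1.92 ± 0.29, 0.0161), and Tgfbr2 higher (0.79 ± 0.15, 0.0358, and 0.76 ± 0.15, 0.0408). These were the 1 higher and 1 lower of the 14 with each mutant. The shares of all genes were 0.992% and 0.67% with D1709N and 1.04% and 0.604% with G1809R. With the block 2 were higher and 1 lower with each, against 7.12% and 8.42% with D1709N and 6.36% and 6.31% with G1809R. Without the block, leaving out 1 array ended the Ets1 call at GFP replicate 1 (0.0613), GFP replicate 3 (0.0668) and WT replicate 2 (0.0552). The Tgfb2 calls ended without WT replicate 1, WT replicate 2, D1709N replicate 2 or D1709N replicate 3 for D1709N, with adjusted p from 0.0226 to 0.0864, and without WT replicate 1, G1809R replicate 2 or G1809R replicate 3 for G1809R, from 0.0214 to 0.0752. Those of Tgfbr2 were kept in 3 of 12 such fits with WT against GFP (without WT replicate 3, G1809R replicate 2 or G1809R replicate 3), in 4 of 12 with D1709N against WT (the same arrays and GFP replicate 2) and in 1 of 12 with G1809R against WT (without GFP replicate 2), with adjusted p up to 0.157, 0.135 and 0.143. With the block all of these calls were kept in 12 of 12. With quantile scaling and no block the Tgfbr2 calls were lost (limma adjusted p = 0.0676, 0.0770 and 0.0818).

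**Figure D5:**
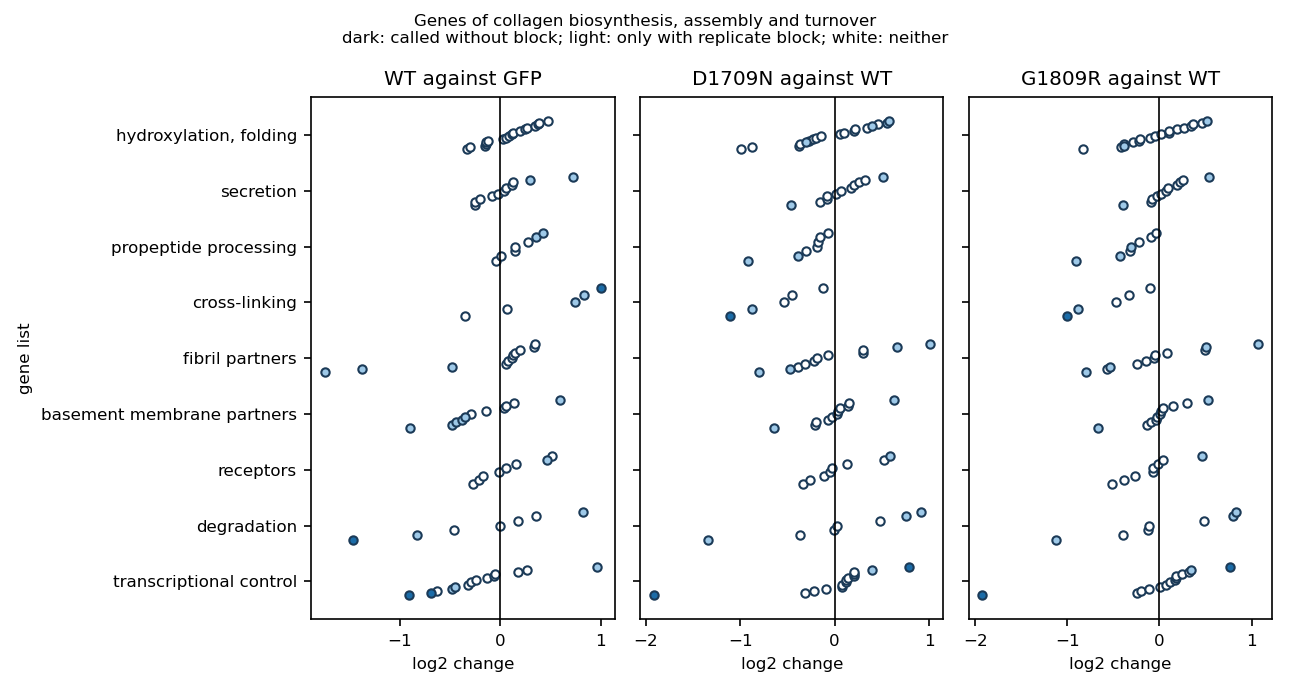
Log2 change (horizontal axis) of the tested genes of 9 lists of collagen biosynthesis, assembly, recognition, breakdown and control (rows) in 3 comparisons. Dark points were called by limma without a block, light points only with the replicate block, white points by neither; Loxl3 is the dark point of cross-linking in all 3 panels, and Tgfb2 is the far left dark point of transcriptional control in both panels of mutants against WT.

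Some markers of cell types, and not those of every list, differed between groups in which Col4a1, Col4a2 and Col5a3 also differed. Of 6 tested smooth muscle markers, 2 were higher with WT against GFP, 5 lower with D1709N and 5 lower with G1809R against WT with the block, against 9.18%, 8.42% and 6.31% of all genes, and 0 were called without it. Their mean log2 level per array ran from -0.50 to 0.91 with GFP, 0.18 to 1.21 with WT, -1.17 to 0.47 with D1709N and -1.22 to 0.31 with G1809R. The smooth muscle marker Myocd was above background on 1 array and Myh11 on 10. Of 6 tested fibroblast markers, limma called 0 higher and 1 lower with WT against GFP (1.19% and 1.76% of all genes). With D1709N against WT it called 0 higher and 1 lower (0.992% and 0.67%). With the block, 2 were higher and 3 lower with WT against GFP (9.18% and 8.6% of all genes, list median -0.35). Against WT, the blocked fit had 4 higher and 2 lower with D1709N (7.12% and 8.42%, median 0.49). With G1809R it also had 4 higher and 2 lower (6.36% and 6.31%, median 0.55). Pdgfra fell with WT against GFP (-0.91 ± 0.12, limma adjusted p = 0.00740) and Pdgfrb was lower with D1709N than with WT (-1.11 ± 0.21, 0.0342, kept in 2 of 12 fits that left out 1 array, with adjusted p from 0.0359 to 0.126). The Pdgfrb value was -0.46 with normexp and -0.68 with quantile scaling, where it was not called (limma adjusted p = 0.0877 and 0.590). Pdgfrb was dim, above background on 11 of 12 arrays and on 2 of 3 with D1709N. The mean level of the fibroblast list ran from 1.20 to 1.28 with GFP, 0.84 to 1.11 with WT, 1.17 to 1.32 with D1709N and 1.22 to 1.39 with G1809R. Of 4 tested cartilage markers, 1 was higher and 0 lower with WT against GFP (1.19% and 1.76% of all genes). With the block 2 were higher and 0 lower (9.18% and 8.6% of all genes), and 2 had a change above 0. Comp rose with WT against GFP (0.83 ± 0.19, 0.0495, kept in 1 of 12 such fits, with adjusted p from 0.0428 to 0.150), and was not called with normexp (0.54, 0.0611) or quantile scaling (0.66, 0.270). Acan differed by 0.84 (limma adjusted p = 0.0189 with the block, 0.331 without) and Sox9 by -0.63 (0.115 with, 0.414 without). Of 5 tested epithelial, 3 endothelial and 2 leukocyte markers, limma called 0 with WT against GFP in either fit. With the block and D1709N against WT, 2 epithelial markers were higher and 0 lower, and 0 endothelial ones higher and 2 lower (7.12% and 8.42% of all genes). With G1809R against WT these counts were 1 and 0, and 0 and 1 (6.36% and 6.31%). Leukocyte markers had 0 calls there. In RNA from whole cultures, fewer cells of a type and less RNA per cell cannot be told apart, and the part of these lists in the collagen results was not tested.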

How the data were processed

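Total RNA (100 ng) of 12 samples was labelled with Cy3 and hybridised to Agilent mouse arrays, per the labels' protocols. The deposited scanner files hold background-subtracted intensity per spot written, per the file headers, by version 11.0.1.1 of Agilent's Feature Extraction, with no scaling between arrays. A deposited table of log2 values covers 31362 probes, with the authors' scaling not given in the sources used here, and served as an alternative. Control spots (3671) and flagged spots were left out, spots of a probe averaged, and the 75th percentile of each array subtracted from log2 intensity. Probes were named through RefSeq accessions (48.9% matched). limma 3.58.1 in R 4.3.3 was fitted to all 12 arrays by group; p-values, two-sided, were adjusted (Benjamini-Hochberg) within a comparison over 24184 genes.

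Same-numbered arrays of different groups deviated together (18 pairs, r from 0.60 to 0.85, against 0.016 to 0.20 for other pairs on one slide), so the replicate numbers from the sample titles pair the arrays, and a fit with the number as a block is given beside the other. On simulated data (24184 genes, WT against GFP, 100 genes changed by each amount), 26% of log2 changes of 1 and 67% of changes of 2 were recovered, and 66% and 93% with the block. False calls were 0 without and 6 with the block. A shared effect of the replicate number was built into those data, so the gain from the block was set by their design. Recovery with other numbers of changed genes was not tested. The members, the gene lists (written from general knowledge) and the tests were chosen with earlier results of these data known. Named are collagens called in either fit and a fixed set of major chains, and of each other list up to 3 called members or 2 by value. One member of the list of miR-29 targets is not reported here. Alternatives were normexp, quantile scaling, other filters, the mean of probes, the value table, blocks, subsets and each array left out.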

Additional observations from a re-analysis of the deposited data

How the results depend on the processing

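With WT against GFP, 3 collagens were called; 0 were called with quantile scaling, with no filter on dim probes, with only the 2 groups and on slide 2 alone, 1 in the deposited value table, 6 with slide and 8 with the replicate number as a block. Leaving out 1 array gave 0 to 2 (5, 6, 7 or 8 with the replicate block). With D1709N against GFP the count was 0, and 2 with the replicate block; leaving out 1 array gave 0 to 0 (0, 1 or 3 with the block). With G1809R against GFP it was 0, and 1 with the replicate block (0 to 0, and 0, 1 or 2 with the block). With D1709N against WT it was 0, and 1 with probes above background on all 12 arrays, 5 with slide and 10 with the replicate number as a block (0 to 1, and 4, 6, 7, 8, 9 or 10 with the block). With G1809R against WT it was 0, and 1 with normexp, 1 with probes above background on all 12 arrays, 3 with slide and 6 with the replicate number as a block (0 to 0, and 5, 6, 7 or 8 with the block). With G1809R against D1709N it was 0 throughout these settings. The fits combining the block with an array left out were chosen after seeing the data.

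The replicate block moved calls in 5 of the 6 comparisons, and the text gives both values. The 46 gene results were chosen because they were called in these data, so a reversed direction was unlikely from the outset. None reversed among 450 values under 10 other settings or 1104 values from fits that left out 1 array, which gives no separate support. The deposited value table held 25 of the 28 tested collagens. A signal near background limits Col3a1, Col8a2, Col14a1, Col15a1 and Col23a1, whose arrays of 1 group differ widely, and 3 arrays a group leave many log2 changes of 1 uncalled.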
